A study of Homo sapiens with 3 samples.

Results

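The V-ATPase, cathepsin and LAMP genes encode the acidifying pump, the proteases and the main membrane glycoproteins of the lysosome. They were taken by name: every row whose symbol begins ATP6V0, ATP6V1, ATP6AP1 or ATP6AP2, is CTS with 1 further letter, or is LAMP1, LAMP2 or LAMP3, without hyphenated symbols or numbered pseudogenes. This gave 44 of the 62680 rows. LAMP1, LAMP2 and LAMP3 also end in a P and a digit and were kept, because the rule names them. Of the 44 genes, 30 had a mean of at least 1 CPM (scaled counts relative to library size) and were compared, among 12270 such genes in all. The other 14 are given by their counts.

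All cells were HepG2, a human hepatocellular carcinoma line with the genotype label WT. Cultures received A740003 at 20 µM, A438079 at 20 µM, or PBS as the control, each for 48 h. The design text calls both compounds specific antagonists of P2X7, an ATP-gated ion channel. With 1 mRNA library for each treatment, replicate spread is unknown, no p-values are given, and the intervals reflect counting alone. No solvent is named, and an effect of solvent or handling cannot be told apart from that of a compound. Both antagonist libraries were set against the same PBS library, so their ratios over PBS are not independent.

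Library totals ran from 19375523 to 19735589 expected counts, and the 44 genes took 0.275%, 0.259% and 0.253% of them in the A740003, A438079 and PBS libraries. All 7 hepatocyte and HepG2 markers, among them ALB, AFP and APOB, stood at 13.1 FPKM or more in every library. Of the leukocyte, stromal and endothelial markers reported, 10 had 0 counts throughout, PTPRC, CSF1R, COL1A2 and VWF among them, and CD14 and PDGFRB had at most 10 counts. P2RX7, the gene of the labelled target, had 2 counts in each library. As these are bulk libraries, fewer cells of a kind and less RNA per cell cannot be told apart.

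The V-ATPase is a rotary proton pump. Its V1 sector, on the cytosolic side, hydrolyses ATP, and its V0 sector, in the membrane, carries protons into the lumen of lysosomes and endosomes. Cathepsins are proteases that mature and work in that acid lumen, where hepatocytes break down endocytosed ligands and material delivered by autophagy, and LAMP proteins line the lysosomal membrane. Transcription factors of the TFEB family are known to bind a short palindrome, the CLEAR element, near the starts of many of these genes.

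Levels were compared between genes in FPKM, the authors' values per length of transcript, given here for the A740003, A438079 and PBS libraries in that order. Among the V1 genes, ATP6V1E1, which encodes a subunit of the peripheral stalks, was the highest with 116, 98.7 and 108 FPKM. Its stalk partner ATP6V1G1 had 89.7, 95.9 and 80.1 FPKM, and ATP6V1F, part of the rotor, had 101, 84.8 and 78.8 FPKM. These 3 genes thus stood above the subunits that bind ATP: ATP6V1B2, the B subunit gene, had 55.1, 55.1 and 47.6 FPKM, and ATP6V1A, the catalytic A subunit gene, had 36.9, 34.6 and 27.1 FPKM. ATP6V1D, the central shaft, had 34.7, 39.3 and 35.9 FPKM. ATP6V1H, a regulatory subunit gene, had 15.9, 13.7 and 16.1 FPKM.

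Among the V0 genes, ATP6V0E1, which encodes a small membrane subunit, had 132, 112 and 119 FPKM, and ATP6V0B, of the proton-carrying ring, had 80.2, 66.3 and 69.3 FPKM. ATP6V0C, the main ring subunit gene, had 20.2, 19.1 and 23.99 FPKM, and ATP6V0D1, which couples the ring to the rotor, had 15.4, 13.3 and 14.4 FPKM. The a subunit, which forms the path of the protons, was split between ATP6V0A1 at 9.98, 7.94 and 9.17 FPKM and ATP6V0A2 at 8.20, 7.45 and 7.44 FPKM. The third a subunit gene, TCIRG1, lies outside the naming rule. It had 44, 64 and 50 counts but 1.15, 2.50 and 4.16 FPKM, so its levels are ordered differently on these scales.

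In all 3 libraries the broadly expressed paralog of most duplicated subunits held nearly all of the FPKM. ATP6V1B2 held 100% of the B genes, ATP6V1G1 at least 99.4% of the G genes, ATP6V0D1 at least 99.5% of the d genes, ATP6V1C1 at least 98.2% of the C genes and ATP6V1E1 at least 96.3% of the E genes. The e subunit was shared more evenly, with ATP6V0E2 holding 11.1%, 14.8% and 17.2% beside ATP6V0E1. Paralogs known from kidney and osteoclasts were near or at 0. ATP6V1B1 and ATP6V1G3 had 0 counts in each library, which allows up to 0.151, 0.155 and 0.154 CPM, ATP6V0A4 had 7, 2 and 2 counts and ATP6V0D2 had 3, 3 and 0 counts. ATP6V1G2, known from neurons, had 2, 5 and 4 counts.

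The cathepsin genes spanned a wide range. CTSB, a cysteine protease gene, was the highest at 225, 220 and 224 FPKM, followed by the aminopeptidase gene CTSH at 173, 157 and 160 FPKM. CTSC, whose product removes dipeptides, stood at 128, 136 and 126 FPKM, and CTSA, a serine carboxypeptidase gene whose product also protects other lysosomal enzymes, at 131, 111 and 107 FPKM. CTSL had 59.6, 52.5 and 54.9 FPKM and its close relative CTSV 12.8, 13.2 and 13.1 FPKM. CTSD, the gene of the main aspartic protease of the lysosome, had 33.2, 35.4 and 53.2 FPKM, and it made up 4.34%, 4.89% and 7.20% of all cathepsin FPKM.

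The other cathepsin genes were scarce or not detected. CTSF and CTSG had 0 counts in all libraries, CTSE, CTSO and CTSW at most 2, CTSS 13, 9 and 23, and CTSK, the collagen-degrading protease gene of osteoclasts, 19, 5 and 4 counts. LAMP1 and LAMP2 stood at 82.2, 82.2 and 80.7 FPKM and at 53.8, 48.6 and 48.0 FPKM, while LAMP3, known from dendritic cells, had 0 counts. ATP6V1FNB, which matches by name, had 0, 2 and 0 counts.

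**Figure D1:**
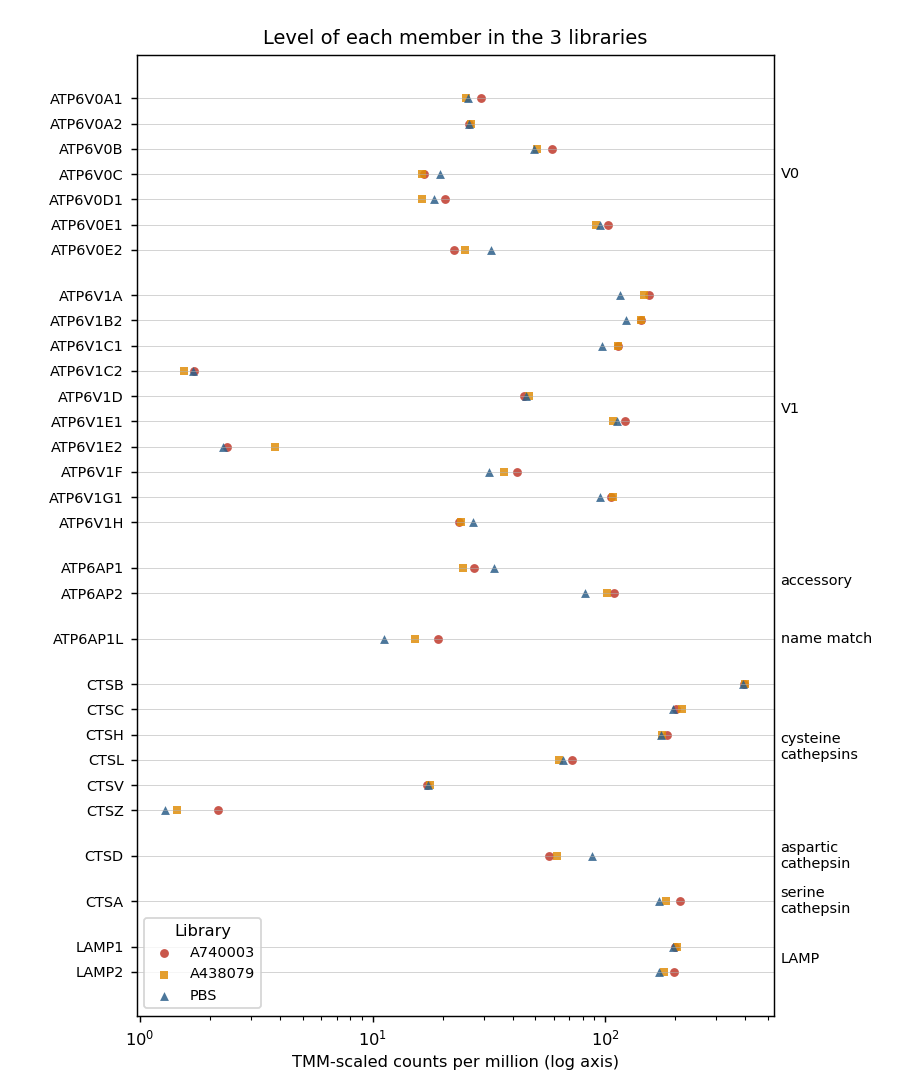
Level of the 30 compared genes in the A740003, A438079 and PBS libraries, in scaled CPM on a log axis, 1 library per treatment. The 3 points of most genes lie close together; CTSD and ATP6V0E2 lie lower and ATP6AP1L lies higher in both antagonist libraries than in the PBS library.

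**Figure D2:**
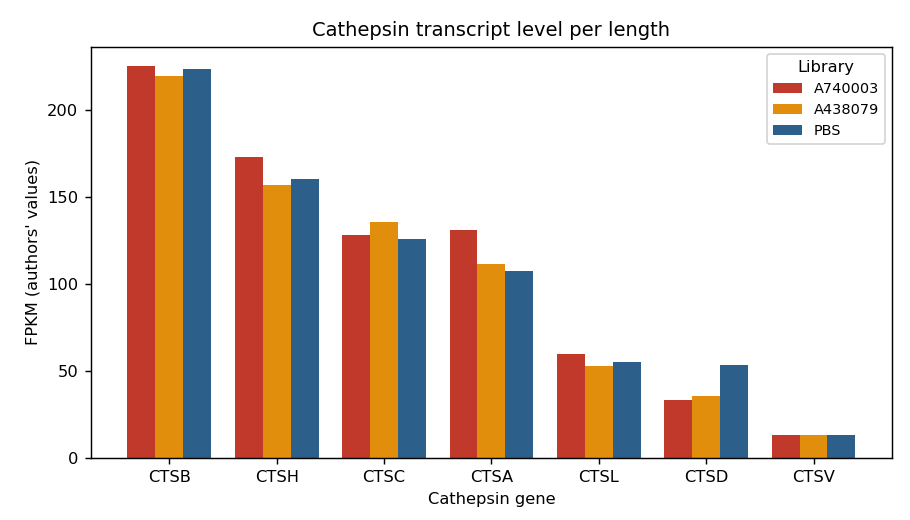
FPKM of the 7 cathepsin genes with at least 1 FPKM in the PBS library, as bars of single libraries, A740003, A438079 and PBS from left to right. CTSB is the highest in each library, and CTSD has 33.2 and 35.4 FPKM in the A740003 and A438079 libraries against 53.2 in the PBS library.

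The promoters of several of these genes hold the core of the CLEAR element. RefSeq promoters on GRCh38.p14, from 250 bases before to 50 after the annotated start, were matched for 28 of the 44 genes, 21 of which were compared. The palindrome CACGTG, which reads the same on both strands, occurred in 8 of the 28 genes (28.6%), against 8.77% of the 27305 genes in that table. The form GTCACGTG, searched on both strands and containing the palindrome, occurred in 6 of 28 (21.4%), against 2.93% of all genes. With GT before and AC after the palindrome, it occurred in ATP6V1G1 alone among the 28, against 0.421% of all genes. The element is already known from many of these genes, so the higher shares among them are no new evidence. The 27305 genes were not matched to the 28 for expression or GC content. A match says only that the letters are there, and RefSeq starts need not lie at the ends of the GENCODE gene spans given below. The bases before the start of the 7 compared genes with the palindrome are shown on the strand of the gene, 5′ to 3′, with CACGTG in capitals, so that its number and place can be compared.
CTSD (chr11:1763928-1764027, minus strand): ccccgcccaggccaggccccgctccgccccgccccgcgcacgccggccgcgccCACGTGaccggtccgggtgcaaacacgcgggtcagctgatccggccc
CTSA (chr20:45891235-45891334, plus strand): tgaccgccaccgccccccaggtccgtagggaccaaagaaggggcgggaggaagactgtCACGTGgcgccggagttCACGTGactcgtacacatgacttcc
ATP6V0E2 (chr7:149872868-149872967, plus strand): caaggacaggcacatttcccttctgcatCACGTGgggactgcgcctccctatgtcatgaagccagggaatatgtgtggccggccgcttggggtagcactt
ATP6V0B (chr1:43974860-43974959, plus strand): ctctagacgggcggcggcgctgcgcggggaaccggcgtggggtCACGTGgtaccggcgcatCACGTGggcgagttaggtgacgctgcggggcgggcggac
ATP6V0D1 (chr16:67481158-67481257, minus strand): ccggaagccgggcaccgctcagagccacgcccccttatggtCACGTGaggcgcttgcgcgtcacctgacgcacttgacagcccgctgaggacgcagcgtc
ATP6V1G1 (chr9:114587669-114587768, plus strand): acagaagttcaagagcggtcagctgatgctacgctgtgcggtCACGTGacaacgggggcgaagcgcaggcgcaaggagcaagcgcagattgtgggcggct
LAMP1 (chr13:113297039-113297238, plus strand): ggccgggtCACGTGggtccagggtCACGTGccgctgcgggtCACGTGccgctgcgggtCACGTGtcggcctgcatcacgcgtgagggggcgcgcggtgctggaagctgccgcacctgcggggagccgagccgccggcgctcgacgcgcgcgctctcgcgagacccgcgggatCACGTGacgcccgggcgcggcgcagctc

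With -1 as the last base before the start, the palindrome began at -47 in CTSD, -42 and -25 in CTSA, -72 at the first of 3 listed starts of ATP6V0E2, -57 and -39 in ATP6V0B, -59 in ATP6V0D1 and -58 in ATP6V1G1. LAMP1 had 6 copies, 4 of them between -192 and -142 and the last reaching past the start. The ratios of these genes, given below, lay on both sides of PBS.

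The first comparison set A740003 against PBS. Of the 30 genes, 2 (6.67%) were at least 1.5-fold higher with a 95% counting interval above 1, against 3.13% of all 12270 genes, and 1 (3.33%) was at least 1.5-fold lower, against 10.7% of all genes. The higher genes were ATP6AP1L and CTSZ, and the lower gene was CTSD. None reached 2-fold, against 1.15% higher and 5.46% lower among all genes. The median log2 ratio was 0.12, and that of all genes 0.00082. Whatever the size, 16 genes had an interval above 1 (53.3%, against 26.1% of all genes) and 5 an interval below 1 (16.7%, against 26.7%). An interval is narrower for a gene with more counts, so these shares also depend on level. The median of all compared genes was 442 counts, and many of the 30 genes had more. They were not matched for level, here or in the comparisons below.

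The second comparison set A438079 against PBS. Here 1 of 30 genes (3.33%), ATP6V1E2, was at least 1.5-fold higher, against 1.63% of all genes, and none was at least 1.5-fold lower, against 9.43%. None reached 2-fold, against 0.848% higher and 3.74% lower among all genes. The median log2 ratio was 0.04, against -0.0037 for all genes, with 11 intervals above 1 (36.7%, against 22.9% of all genes) and 4 below 1 (13.3%, against 23.2%).

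**Figure D3:**
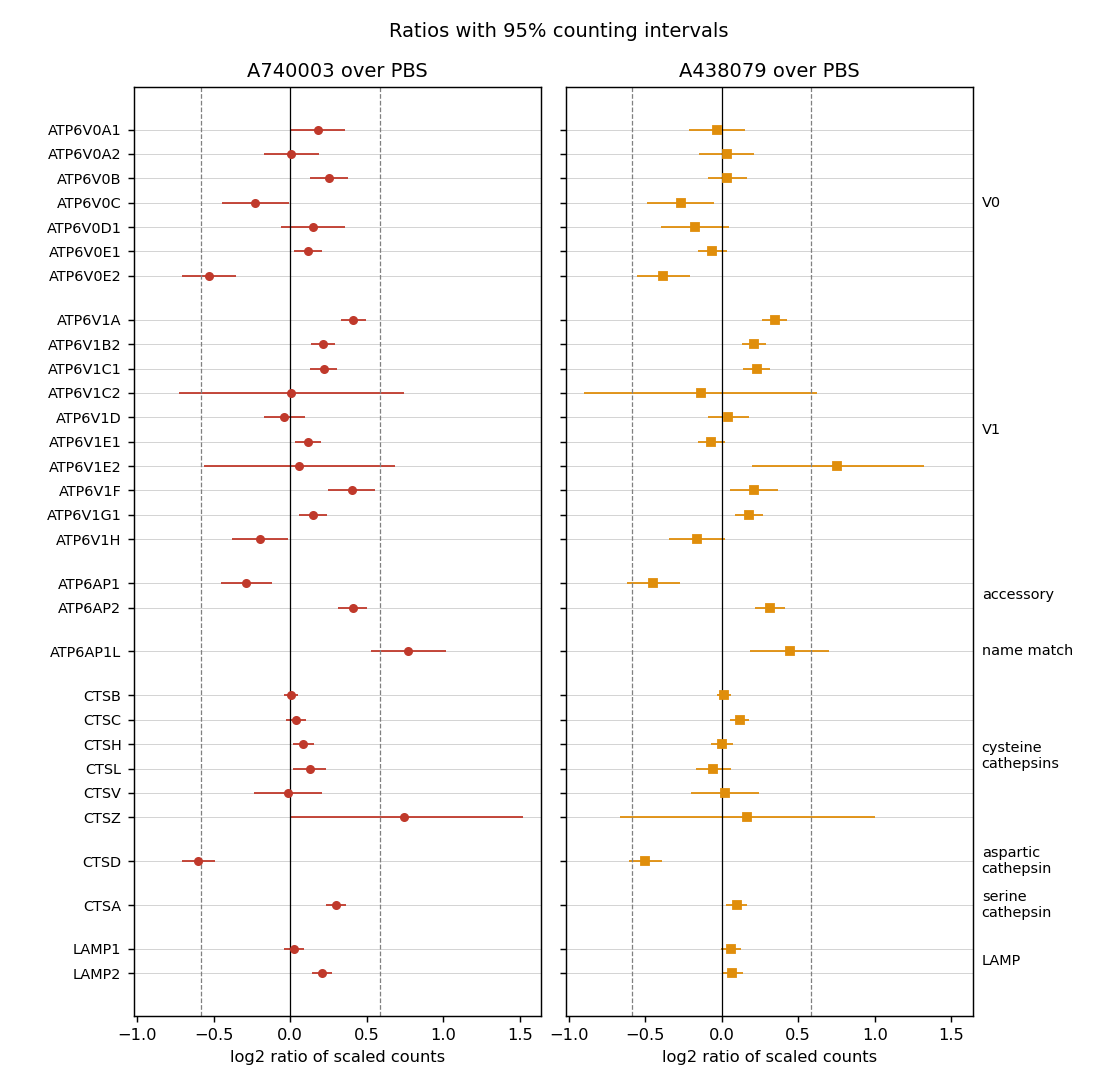
Log2 ratio of scaled counts over PBS for the 30 compared genes, with A740003 on the left and A438079 on the right; points are the ratios, bars their 95% counting intervals, dashed lines the 1.5-fold limits, and 1 library stands behind each treatment. CTSD, ATP6V0E2 and ATP6AP1 lie left of 0 in both panels, ATP6V1A, ATP6AP2 and ATP6AP1L right of 0.

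CTSD (ENSG00000117984; chromosome 11, 1752752 to 1764573, minus strand, GENCODE release 29 on GRCh38, as for later positions) had 1148 counts with A740003 and 1199 with A438079, against 1697 with PBS. Both antagonist libraries were below PBS. The ratio was 0.660 (0.612 to 0.711) for A740003 and 0.708 (0.657 to 0.763) for A438079, where the brackets hold the 95% counting interval, as they do below. The A740003 value was just past the 1.5-fold limit and the A438079 value just short of it. The CTSD transcript is GC-rich, at 64.0%, and the median log2 ratio of genes of like GC content and length was -0.27 for A740003 and -0.29 for A438079. Removing this trend left CTSD at -0.33 in place of -0.60 for A740003, short of the limit, and at -0.21 in place of -0.50 for A438079. Under upper quartile scaling the log2 value of CTSD, A740003 over PBS, was -0.54, also short of the limit.

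CTSA (ENSG00000064601; chromosome 20, 45890144 to 45898820, plus strand), GC-rich too at 60.7%, had 4194 counts with A740003 and 3551 with A438079, against 3325 with PBS. Its ratio was 1.23 (1.18 to 1.29) for A740003 and 1.07 (1.020 to 1.12) for A438079. After trend removal the log2 ratios were 0.74 and 0.49, in place of 0.30 and 0.10, and the A740003 value was then past the 1.5-fold limit. On either scale CTSA and CTSD stood on opposite sides of PBS.

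The abundant cysteine cathepsin genes lay close to PBS. CTSB had 7854 counts with A740003 and 7706 with A438079, against 7636 with PBS, at ratios of 1.003 (0.972 to 1.04) and 1.011 (0.979 to 1.04). CTSB had the most counts of the 44 genes, and its intervals are narrow. The ratios for A740003 and A438079 were 1.03 and 1.09 for CTSC, 1.06 and 1.002 for CTSH, 1.09 and 0.962 for CTSL, and 0.990 and 1.014 for CTSV. All cathepsin genes together had 22754 counts with A740003 and 21595 with A438079, against 21537 with PBS, at ratios of 1.03 (1.011 to 1.05) and 1.005 (0.986 to 1.024).

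CTSZ (ENSG00000101160; chromosome 20, 58995185 to 59007247, minus strand), a carboxypeptidase gene, rests on few reads. Its expected counts were 42.84 with A740003 and 28.20 with A438079, against 24.51 with PBS, and the ratio for A740003 was 1.68 (1.002 to 2.87). In FPKM the A740003 library was not higher, at 0.24, 0.18 and 0.25. The length implied by counts and FPKM was 9045, 7990 and 5060 nt in the A740003, A438079 and PBS libraries, while the longest CTSZ transcript in GENCODE release 29 has 1495 nt. CTSK, below the limit of 1 CPM, had 19, 5 and 4 counts and a ratio of 4.63 (1.54 to 18.7) for A740003.

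The V1 sector was higher as a sum of counts. Its 13 genes had 14982 counts with A740003 and 14204 with A438079, against 12679 with PBS, at ratios of 1.15 (1.13 to 1.18) for A740003 and 1.12 (1.10 to 1.15) for A438079. ATP6V1A, the catalytic subunit gene, had 3075 counts with A740003 and 2858 with A438079, against 2252 with PBS, at 1.33 (1.26 to 1.41) and 1.27 (1.20 to 1.34). The matching ratios were 1.16 and 1.16 for ATP6V1B2, 1.11 and 1.13 for ATP6V1G1, and 1.32 and 1.16 for ATP6V1F. All 8 of these intervals lie above 1, and none of the 4 genes reached 1.5-fold. After trend removal the log2 ratios were 0.30 and 0.21 for ATP6V1A, 0.24 and 0.20 for ATP6V1G1, 0.32 and 0.18 for ATP6V1F, and 0.04 and 0.03 for ATP6V1B2, whose intervals then include 1. The median log2 ratio of the 10 compared V1 genes was 0.04 in place of 0.13 for A740003 and 0.06 in place of 0.19 for A438079.

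The remaining V1 genes lay closer to PBS, below it, or differed by scale. ATP6V1D stood at 0.974 (0.887 to 1.07) and 1.03 (0.939 to 1.13), and ATP6V1E1 at 1.08 (1.022 to 1.15) and 0.955 (0.899 to 1.014). ATP6V1H had 469 counts with A740003 and 467 with A438079, against 524 with PBS, at 0.873 (0.769 to 0.991) and 0.893 (0.786 to 1.013). In FPKM the ratios of ATP6V1H were 0.990 and 0.853, so the A740003 library was near PBS per length. ATP6V1C1, a subunit gene involved in joining V1 to V0, stood at 1.16 and 1.17 by counts, but had 33.3, 36.9 and 36.8 FPKM, so the A740003 library was below PBS per length. Trend removal left its log2 ratios by counts at 0.03 and 0.08, with intervals that include 1. Its implied length differed between libraries, at 3434, 3053 and 2651 nt. Its paralog ATP6V1C2 had 34, 30 and 33 counts, and both intervals over PBS include 1.

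ATP6V1E2 (ENSG00000250565; chromosome 2, 46490750 to 46542557, minus strand), the minor E subunit gene, known from testis, had 47 counts with A740003 and 74 with A438079, against 44 with PBS. By counts it was high in the A438079 library alone: its ratio was 1.04 (0.676 to 1.61) for A740003 and 1.68 (1.14 to 2.51) for A438079. Its mean was under 5 CPM. Its FPKM with A740003, A438079 and PBS were 2.58, 3.76 and 1.64, so both antagonist libraries were above PBS per length, and with a pseudocount of 0.1 the A740003 library was also past the 1.5-fold limit. The implied lengths, in the same order of libraries, were 923, 1004 and 1385 nt.

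The V0 sector stood closer to PBS as a sum of counts. Its 9 genes had 5529 counts with A740003 and 4878 with A438079, against 5184 with PBS, at ratios of 1.04 (1.001 to 1.08) for A740003 and 0.943 (0.906 to 0.980) for A438079. ATP6V0E2 (chromosome 7, 149872968 to 149891204, plus strand) had 448 counts with A740003 and 483 with A438079, against 630 with PBS, at 0.694 (0.613 to 0.784) and 0.768 (0.681 to 0.866). It had the lowest ratio of the V0 genes in both comparisons, at a transcript GC content of 45.4%. Trend removal put its log2 ratios at -0.58 and -0.45, in place of -0.53 and -0.38. Its paralog ATP6V0E1 stood at 1.08 (1.017 to 1.15) and 0.959 (0.898 to 1.024). Over the 7 compared V0 genes the median log2 ratio after trend removal was 0.15 in place of 0.12 for A740003. For A438079 it was -0.04 in place of -0.06. The A740003 median was thus above the 0.04 of the V1 genes on that scale.

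The remaining V0 genes stood closer to PBS by counts. ATP6V0B had 1175 counts with A740003 and 984 with A438079, against 960 with PBS, at 1.19 (1.10 to 1.30) and 1.03 (0.939 to 1.12). ATP6V0C had 333 counts with A740003 and 315 with A438079, against 380 with PBS, at 0.855 (0.735 to 0.993) and 0.830 (0.713 to 0.967), so the ring genes lay on opposite sides of PBS for A740003. ATP6V0D1 stood at 1.11 and 0.887, ATP6V0A1 at 1.13 and 0.978, and ATP6V0A2 at 1.004 and 1.024. Of these 6 intervals, that of ATP6V0A1 for A740003 excludes 1 and the other 5 include it. After trend removal the log2 ratios were 0.33 and 0.13 for ATP6V0B, 0.37 and 0.07 for ATP6V0D1 and 0.26 and 0.10 for ATP6V0A1. Those of ATP6V0C were -0.28 and -0.19, and those of ATP6V0A2 -0.11 and -0.04. The ATP6V0D1 interval for A740003 then excluded 1, at 1.12 to 1.49.

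The accessory genes stood on opposite sides of PBS for either compound. ATP6AP1 (chromosome X, 154428632 to 154436516, plus strand), whose product helps to assemble the V0 sector, had 544 counts with A740003 and 474 with A438079, against 647 with PBS, at 0.820 (0.730 to 0.920) and 0.734 (0.651 to 0.828). ATP6AP2 (chromosome X, 40579372 to 40606848, plus strand), which encodes the prorenin receptor, had 2166 counts with A740003 and 1979 with A438079, against 1592 with PBS, at 1.33 (1.24 to 1.42) and 1.245 (1.17 to 1.33). Transcript GC content was 55.0% in ATP6AP1 and 42.7% in ATP6AP2. After trend removal the log2 ratios were -0.15 and -0.30 for ATP6AP1 and 0.33 and 0.23 for ATP6AP2. The interval of ATP6AP1 for A740003 then included 1, at 0.805 to 1.014.

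ATP6AP1L (ENSG00000205464; chromosome 5, 82279462 to 82386977, plus strand) matches the rule by name, and no role in the pump is given to it here. It had 381 counts with A740003 and 296 with A438079, against 218 with PBS, all of them whole. Its ratio for A740003, 1.70 (1.44 to 2.02), was the highest over PBS among the 30 genes, and for A438079 it was 1.36 (1.14 to 1.63). The A740003 call was kept under every alternative tried except the 2-fold limit.

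LAMP1 had 3976 counts with A740003 and 3959 with A438079, against 3806 with PBS, at 1.019 (0.974 to 1.07) and 1.04 (0.997 to 1.09), and both intervals include 1. LAMP2, whose product also serves chaperone-mediated autophagy, had 3924 counts with A740003 and 3469 with A438079, against 3310 with PBS, at 1.16 (1.10 to 1.21) and 1.05 (1.001 to 1.10). After trend removal the log2 ratios of LAMP2 were 0.07 and -0.06, in place of 0.21 and 0.07, so the A438079 value changed side. Neither gene came near 1.5-fold.

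GC content was also set against the ratios. Over the 30 genes, Spearman's rho between transcript GC content and log2 ratio was -0.208 for A740003 and -0.534 for A438079, against -0.373 and -0.461 over all compared genes with a GC value. For A740003 over A438079 it was 0.320 over the 30 genes, against -0.0196 over all. These describe genes of the same libraries, which share depth and preparation. Medians of the log2 ratio were 0.11 for A740003 and -0.015 for A438079 in the 14 genes at or above 47.5% GC, the median of all genes, and 0.12 and 0.09 in the 16 genes below it. For A740003 these medians were close to each other.

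**Figure D4:**
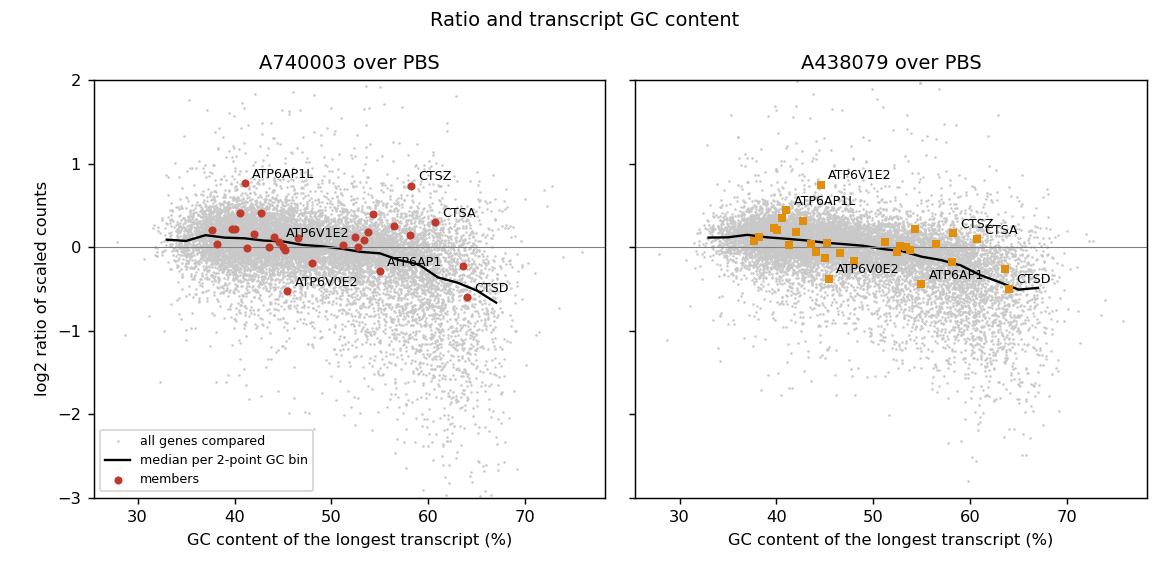
Log2 ratio over PBS against GC content of the longest transcript for A740003 (left) and A438079 (right); grey points are all compared genes, the line their median in GC bins 2 points wide, and coloured points the 30 lysosomal genes. The axis is limited to -3 to 2, so more extreme genes are not drawn. CTSD lies below 0 together with the median of other GC-rich genes, CTSA lies above that median, and ATP6V0E2 lies below it at 45.4%.

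The third comparison set A740003 against A438079 at the same dose and time. None of the 30 genes was at least 1.5-fold higher, against 2.44% of all genes, and 1 (3.33%) was at least 1.5-fold lower, against 2.81%. That gene was ATP6V1E2, at 0.618 (0.420 to 0.903), and the call was lost in FPKM. The median log2 ratio was 0.08, against -0.0036 for all genes, with 12 intervals above 1 (40%, against 15.6% of all genes) and 2 below 1 (6.67%, against 17.4%). The V0 sum stood at 1.10 (1.06 to 1.15) times the A438079 level and the V1 sum at 1.03 (1.003 to 1.05) times. Among single genes, ATP6AP1L stood at 1.253 (1.07 to 1.46), ATP6V0B at 1.16 (1.07 to 1.27) and CTSA at 1.15 (1.10 to 1.20), and ATP6V0D1 had a log2 ratio of 0.32. CTSD stood at 0.932 (0.859 to 1.012) and ATP6V0E2 at 0.903 (0.792 to 1.03), both with intervals that include 1.

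Other genes of the lysosome were described from lists, to be read against the shares of all genes called: for A740003 3.13% higher and 10.7% lower, and for A438079 1.63% higher and 9.43% lower. All 13 genes listed for V-ATPase assembly and regulation were compared. For A740003 DMXL2 was called higher and TBC1D24 lower, and for A438079 none was called higher and TBC1D24 lower, so that each of these genes made up 7.69% of the list. DMXL2, a subunit of the complex that rejoins V1 to V0, had 578 counts with A740003 and 459 with A438079, against 375 with PBS, at 1.503 (1.32 to 1.72) and 1.23 (1.07 to 1.41). Its log2 ratio for A740003, 0.59, was 0.42 after trend removal, short of the limit. From the same list, WDR7 stood at 1.38 and 1.40 and DMXL1 at 1.34 and 1.15 by counts. In FPKM both antagonist libraries were below PBS for either gene. The A740003, A438079 and PBS values were 2.39, 3.34 and 4.15 FPKM for WDR7 and 6.18, 5.91 and 7.87 for DMXL1.

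Among 46 lysosomal hydrolase genes other than cathepsins, 43 passed 1 CPM. No member was called higher for either compound. Those called lower were ARSA, GAA, PLBD2 and SGSH for A740003 (9.30%) and GAA and SGSH for A438079 (4.65%), and median log2 ratios were 0.09 and -0.05. GAA, the acid alpha-glucosidase gene that degrades lysosomal glycogen, had 53 counts with A740003 and 82 with A438079, against 183 with PBS, at 0.282 (0.204 to 0.385) and 0.449 (0.342 to 0.586). Trend removal left its log2 ratios at -1.04 and -0.47, the A438079 value short of the limit. PLBD2 stood at 0.625 (0.506 to 0.771) and 0.728 (0.594 to 0.891), with a log2 ratio for A740003 of -0.49 after trend removal, short of the limit. MANBA, the beta-mannosidase gene, stood at 1.48 (1.32 to 1.67) and 1.23 (1.09 to 1.39).

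Of 33 genes of lysosomal membrane proteins, 32 were compared. Called genes for A740003 were MFSD8 (higher, 3.12%) and CLCN7, MFSD12 and SIDT2 (lower, 9.38%), and for A438079 CLCN7, MFSD12 and SIDT2 (lower, 9.38%). CLCN7, which encodes a chloride and proton exchanger, had 86 counts with A740003 and 96 with A438079, against 215 with PBS, at 0.390 (0.300 to 0.503) and 0.447 (0.348 to 0.572). Its transcript GC content is 64.9%, and trend removal left log2 ratios of -0.47 and -0.49 in place of -1.35 and -1.16, both short of the limit. MFSD8 stood at 1.55 (1.35 to 1.78) and 1.33 (1.16 to 1.54), and its log2 ratio for A740003, 0.63, was 0.49 after trend removal, also short of it. SLC38A9, an amino acid sensor gene, stood at 1.34 and 1.19.

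The list for enzyme sorting held 16 genes, all compared. NAGPA, whose product uncovers the mannose 6-phosphate tag, was called lower for both compounds, at 0.607 (0.492 to 0.747) and 0.582 (0.469 to 0.720), and CLN6 for A438079, at 0.653 (0.524 to 0.810), which made 6.25% of the list lower for A740003 and 12.5% for A438079. After trend removal the log2 ratios were -0.58 and -0.63 for NAGPA and -0.49 for CLN6, of which only that of NAGPA for A438079 was past the limit. AP1G1, an adaptor subunit gene, stood at 1.46 and 1.28. Of 17 cathepsin inhibitor genes, 8 were compared and none was called for either compound. SERPINA3, whose product inhibits cathepsin G, stood at 0.739 and 0.674, and CST3, the cystatin C gene, at 1.13 and 1.04. SERPINB1 had 929 counts with A740003 and 1080 with A438079, against 1082 with PBS, at 0.837 (0.766 to 0.915) for A740003. Of the 127 genes outside the 44 that the authors' annotation puts in the KEGG lysosome pathway, 103 were compared. For A740003, 3 were called higher (2.91%, against 3.13% of all genes) and 9 lower (8.74%, against 10.7%). For A438079, 1 was called higher (0.971%, against 1.63%) and 7 lower (6.80%, against 9.43%). With so few genes called, these shares were close to those of all genes.

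Of 31 genes of the TFEB family and of nutrient sensing at the lysosome, 27 were compared. None was called higher. Those called lower were NPRL3, RPTOR, SESN2, TFE3, TFEB and TSC2 for A740003 (22.2%) and NPRL3, RPTOR, TFE3, TFEB and TSC2 for A438079 (18.5%), and median log2 ratios were 0.05 and -0.02. TFEB, which encodes a transcription factor of lysosomal genes, had 27 counts with A740003 and 29 with A438079, against 63 with PBS, at 0.418 (0.256 to 0.666) and 0.461 (0.286 to 0.727). Its relative TFE3 had 120 counts with A740003 and 128 with A438079, against 220 with PBS, at 0.532 (0.422 to 0.667) and 0.583 (0.465 to 0.728). Both genes were thus below PBS in both antagonist libraries, while MITF, of the same family, had 17, 21 and 20 counts. RPTOR, a subunit gene of the mTORC1 kinase complex, stood at 0.346 (0.276 to 0.432) and 0.535 (0.440 to 0.649), and SESN2, a leucine sensor gene, at 0.576 and 0.679. After trend removal the log2 ratios were -1.09 and -0.95 for TFEB, -0.53 and -0.44 for TFE3, and -0.48 and -0.17 for RPTOR. SESN2 was then at -0.41 for A740003. Of TFEB, TFE3, RPTOR and SESN2, only TFEB stayed past the limit. NPRL3 stood at 0.599 and 0.531 and TSC2 at 0.233 and 0.617 by counts. No value after trend removal is given here for NPRL3 and TSC2. The 7 genes whose promoters are printed above stood between 0.660 and 1.23 times PBS for A740003 and between 0.708 and 1.13 times for A438079. All 30 compared genes ran from 0.660 to 1.70 and from 0.708 to 1.68. A link between the levels of TFEB or TFE3 and these genes was not tested.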

How the data were processed

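RNA-seq of 3 libraries, 1 per treatment, was used. The authors deposited expected counts per gene, and 35.1%, 34.8% and 33.3% of those above 0 are not whole (tolerance 0.005) in the A740003, A438079 and PBS columns. FPKM, normalized for length and depth by the authors, came from a second deposited table. The submitters' processing notes name GRCm38, a mouse build, although the rows are human genes. No aligner, counter, annotation or strand setting is given in the sources, so overlapping and antisense genes are uncertain.

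Expected counts were rounded and scaled by TMM in edgeR 4.0.16 (R 4.3.3), and genes were compared from a mean of 1 CPM (19.4 to 19.9 counts). Ratios carry exact conditional binomial (Clopper-Pearson) 95% intervals, which cover counting error only, as does the limit of 3 counts for a 0. The code was run on counts simulated with counting error alone, as the intervals assume, and without shared reads. That run checks the code and not how well the intervals suit these data. A gene was called at a ratio of at least 1.5, or its inverse, with an interval that excludes 1. Before taking log2, 0.5 counts were added. The GC and length trend is the median log2 ratio of the 201 nearest genes in rank of both, for the longest GENCODE release 29 transcript, matched by identifier for 97% of compared genes. Of the 30 genes, 14 had whole counts in all libraries; reads of the other 16 may be shared with other genes. Promoters are from RefSeq, GRCh38.p14.

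All 44 genes are named. Of the markers of other cell types, 1 is not reported here. From each further list the text names at most 3 genes, those with the largest absolute log2 ratio over PBS and a mean of 5 CPM or more, besides TFEB, TFE3 and MITF. Other list genes named as called, TCIRG1 and RNASEK were taken up after their values were seen. The 44 genes, lists and motifs were chosen with earlier results of these data known. Alternatives changed the scaling (library totals, size factors of DESeq2 1.42.0, upper quartile, protein-coding genes), the filter, fold or interval, rounding, the unit (FPKM with pseudocounts of 0.1 and 1) and the rows summed, or removed the trend.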

Additional observations from a re-analysis of the deposited data

How the results depend on the processing

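No paired analysis was possible because each treatment had 1 library. For A740003 over PBS, 2 genes were called higher and 1 lower. The higher count was 1 from a mean of 5 CPM, 1 in FPKM with a pseudocount of 1, 1 with a 99% interval, 1 with whole counts only, 5 at the looser fold limit tried and 0 at 2-fold. It was 3 without a filter (CTSK added) and 3 with readthrough rows summed (ATP6V1G2 added). It was 2 in FPKM with a pseudocount of 0.1 (ATP6AP1L, ATP6V1E2) and 2 with the trend removed (ATP6AP1L, CTSA), so CTSZ lost its call in both. The lower count was 0 under upper quartile scaling, 0 with whole counts only, which leaves out CTSD, 0 with the trend removed, 0 at 2-fold and 2 at the looser limit. For A438079 over PBS, 1 gene was higher and 0 lower. The higher count was 0 from 5 CPM, 0 at 2-fold and 3 at the looser limit, and the lower count 1 without a filter (CTSS), 1 in FPKM with a pseudocount of 0.1 (CTSD), 1 with readthrough rows summed (ATP6V1G2) and 3 at the looser limit. For A740003 over A438079, 0 genes were higher and 1 lower. The higher count was 1 without a filter (CTSK), 1 with readthrough rows summed (ATP6V1G2) and 1 at the looser limit, and the lower count 0 from 5 CPM, in FPKM with either pseudocount, at 2-fold and with a 99% interval. In FPKM the log2 ratio of CTSZ, A740003 over PBS, was reversed, at -0.042 with a pseudocount of 0.1 and -0.012 with 1. Under upper quartile scaling the sums for A740003 over PBS were 1.08 for V0, 1.20 for V1, 1.07 for cathepsins and 1.13 for LAMP genes, and for A438079 over PBS 1.16 for V1, 1.04 for cathepsins and 1.08 for LAMP genes. With library totals the cathepsin sum for A740003 over A438079 was 1.05. Across the alternatives the median log2 ratio of the compared genes ran from 0.07 to 0.17 for A740003 over PBS, from -0.01 to 0.09 for A438079 over PBS and from 0.05 to 0.14 for A740003 over A438079. Where neither the limit nor the genes compared changed, the cause was not tested.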

Other observations

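A readthrough row, ATP6V1G2-DDX39B, joins a V1 subunit gene to its neighbour, an RNA helicase gene, and is left out by its hyphen. Its expected counts were 94.63 with A740003 and 20.75 with A438079, against 54.28 with PBS, beside 8414, 7781 and 7326 counts of DDX39B and 2, 5 and 4 of ATP6V1G2. Summed with ATP6V1G2, the row stood at 1.63 times PBS for A740003 (95% counting interval 1.17 to 2.30) and at 0.449 times for A438079 (0.271 to 0.725). The part of shared reads in this was not tested. RNASEK, which encodes a further small V0 protein and lies outside the naming rule, had 369 counts with A740003 and 312 with A438079, against 390 with PBS.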
